A study of Homo sapiens with 12 samples.

Results

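The genes described here encode the pumps that move calcium out of the cytosol, the channels that release it from the endoplasmic reticulum (ER) and a sensor of the ER store. They are 10 of the 63241 genes counted in each library and were matched by gene symbol. The pumps are ATP2A2 and ATP2A3 of the ER, ATP2B1 and ATP2B4 of the plasma membrane, and ATP2C1 and ATP2C2 of the Golgi and secretory pathway. ITPR1, ITPR2 and ITPR3 are the release channels, and STIM1 is the store sensor. ATP2A3 was picked for its high level in the KD2 libraries, so its values are given as a description with no test, and the other 9 genes were set beside it.

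The RNA, selected by poly-A tail, came from a human prostate cancer cell line, MDA-PCA-2B, although the growth protocol in the labels also names MDA-PCa-2a. The 12 libraries form 4 groups of 3: a pair of DHODH knockdowns numbered 1 and 2 (KD1 and KD2), a rescue of the second of them (KDR), and NT, to which the others are compared. DHODH encodes dihydroorotate dehydrogenase, a mitochondrial enzyme of pyrimidine synthesis. The labels do not say what NT stands for, what construct was used, how the rescue was made, or whether the lines are clones. Nor do they say that replicate libraries are separate cultures, so p-values here reflect variation among libraries that could be technical.

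Calcium is kept low in the cytosol and high in the ER by P-type pumps, which use ATP and form a phosphorylated aspartate during each cycle. SERCA pumps (ATP2A genes) fill the ER, PMCA pumps (ATP2B genes) push calcium out of the cell, and SPCA pumps (ATP2C genes) load the Golgi with calcium and manganese. Inositol trisphosphate (IP3), made by phospholipase C, opens the ITPR channels, and STIM1 senses the emptied store and opens ORAI channels in the plasma membrane.

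The coding sequence around the phosphorylated aspartate is shown for the 6 pumps, because it is the site that makes them one enzyme class. It shows how far the related genes differ at that site. How well their reads were told apart was not tested. Each run has 51 bases, read 5′ to 3′ on the coding strand of GRCh38 in the GENCODE 29 annotation and lying within 1 exon; the 15 capitals code for the aspartate and the next 4 residues.
ATP2A2, chr12:110327955-110328005, plus strand: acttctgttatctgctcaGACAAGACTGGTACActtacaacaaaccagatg
ATP2A3, chr17:3947403-3947453, minus strand: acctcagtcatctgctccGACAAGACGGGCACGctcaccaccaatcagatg
ATP2B1, chr12:89621681-89621731, minus strand: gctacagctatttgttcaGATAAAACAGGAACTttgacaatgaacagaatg
ATP2B4, chr1:203707922-203707972, plus strand: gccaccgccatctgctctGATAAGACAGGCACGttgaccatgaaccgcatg
ATP2C1, chr3:130964953-130965003, plus strand: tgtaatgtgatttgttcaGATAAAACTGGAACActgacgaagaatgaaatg
ATP2C2, chr16:84439432-84439482, plus strand: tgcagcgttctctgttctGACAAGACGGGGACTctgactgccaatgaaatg
The site lies in exon 8 of ATP2A2 and ATP2A3, exon 10 of ATP2B1 and ATP2B4, and exon 13 of ATP2C1 and ATP2C2. ATP2A3 and ATP2A2 are identical at 40 of the 51 bases and at 12 of the 15 in capitals. Over all their annotated transcripts, ATP2A3 and ATP2A2 share no stretch of 50 bases, and their longest identical run is 20 bases. None of the other related pairs shares a stretch of 50 bases either, with longest identical runs of 19 to 32 bases.

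Libraries held 23786288 to 38240369 counts, and levels are given as CPM, counts scaled to a common library total after TMM normalization. The biological coefficient of variation between libraries was 6.62% in KD1, 7.17% in KD2, 5.53% in KDR and 15.7% in NT. NT replicate 2 stood apart: without it, the NT value was 8.55%. DHODH RNA averaged 10.3 ± 0.674 CPM in KD1, 13.1 ± 1.73 in KD2, 18.6 ± 0.918 in KDR and 10.5 ± 2.51 in NT (SD, n = 3 each). It was not called lower in KD1 or KD2 than in NT (edgeR quasi-likelihood, log2 fold change -0.03 and 0.31, Benjamini-Hochberg adjusted p = 0.97 and 0.097). In KDR it was called higher than in NT (0.82, edgeR adjusted p = 0.00010) and than in KD2 (0.51, adjusted p = 0.0064). The directions below are thus those of the labelled groups, without a measured fall of DHODH RNA in KD1 or KD2 behind them. The markers of prostate luminal cells were present, with 9 of 9 above the filter on low counts and a summed level of 16105 to 16481 CPM in KD1, 10752 to 11068 in KD2, 16130 to 16562 in KDR and 16008 to 19011 in NT.

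ATP2A3 RNA was high in KD2 and low in every other group. ATP2A3 (ENSG00000074370, chromosome 17, 3923870 to 3964464, minus strand) encodes SERCA3, a pump known from blood, endothelial and some epithelial cells. It had 9.02, 7.53 and 8.30 CPM in KD1, 502, 545 and 539 CPM in KD2, 5.15, 5.84 and 6.88 CPM in KDR, and 8.35, 10.3 and 7.32 CPM in NT. The 3 KD2 libraries lay far above the other 9, and the KD1 and NT libraries overlapped. The 3 KDR libraries were the lowest of all 12, below every NT library.

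The KD2 mean of 529 ± 23.2 CPM was 61.0 times the NT mean of 8.66 ± 1.52 CPM (SD, n = 3 each). As a log2 fold change, ATP2A3 differed by 5.93 between KD2 and NT, by -0.07 between KD1 and NT, by -6.48 between KDR and KD2, and by -0.56 between KDR and NT. Of the 19373 genes tested, 15 had a larger log2 fold change in KD2 against NT and 9 had a lower one in KDR against KD2. Each KD2 library held 12901 to 17694 counts of ATP2A3 and each of the others held 176 to 319. In bulk RNA such as this, fewer cells of a type and less RNA per cell cannot be told apart.

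**Figure D1:**
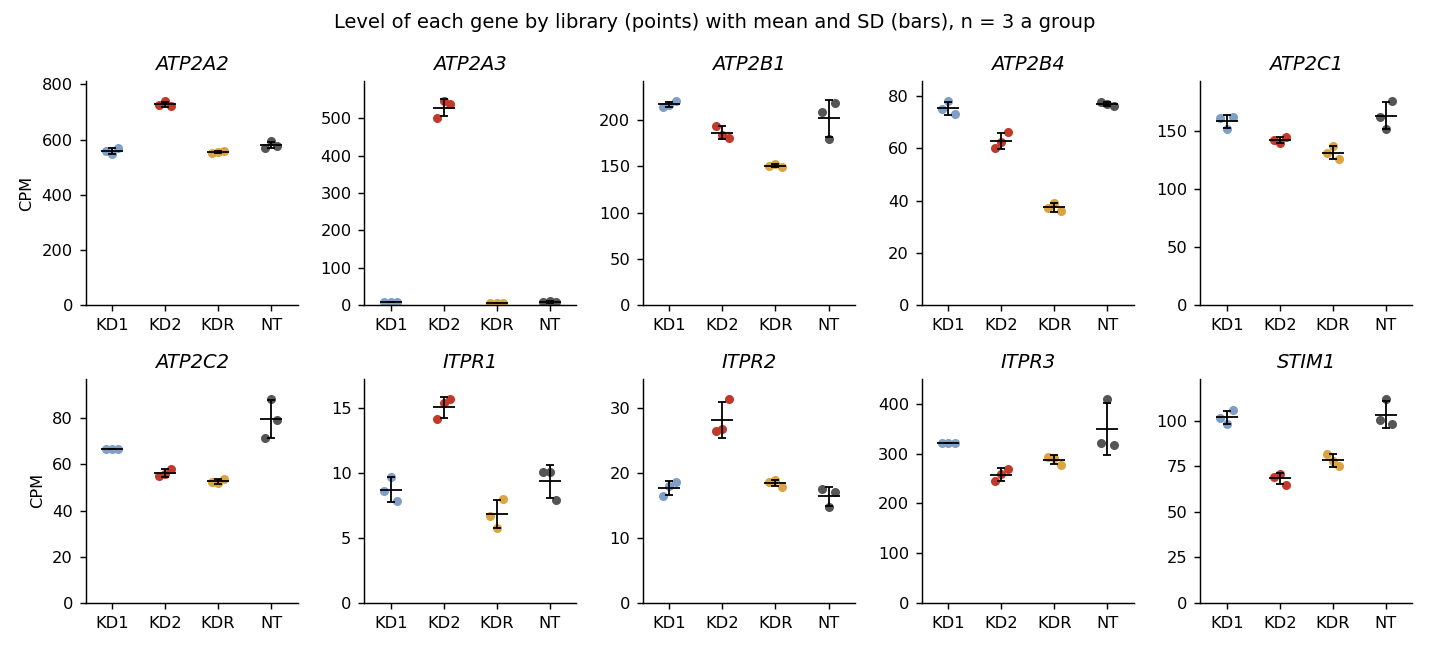
Levels of the 10 genes in each library, in TMM-scaled CPM on a linear axis that starts at 0 and differs between panels, for KD1, KD2, KDR and NT; points are libraries and bars are the mean with the SD of 3 libraries. ATP2A3 lies at 502 to 545 CPM in KD2 and below 11 CPM in the other 9 libraries, while the other genes differ between groups by much smaller factors.

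ATP2A2 RNA rose in KD2 as well, by a smaller factor. ATP2A2 (ENSG00000174437, chromosome 12, 110280756 to 110351093) encodes SERCA2, the ER pump found in nearly all cells. It had 559, 549 and 569.6 CPM in KD1, 727, 738 and 721 CPM in KD2, 550.3, 554 and 560.3 CPM in KDR, and 570.3, 594 and 577 CPM in NT. The KD2 libraries were above all others, and the KDR libraries lay just under the NT libraries without touching them. On the log2 scale, KD2 exceeded NT by 0.33 (95% interval 0.24 to 0.42, edgeR quasi-likelihood adjusted p = 2.1e-06) and KDR differed from KD2 by -0.39 (adjusted p = 2.0e-07). KDR and NT differed by -0.06 (95% interval -0.15 to 0.02, edgeR adjusted p = 0.29).

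ATP2A3 made up a large share of SERCA RNA in KD2 and a small one elsewhere. Divided by the length of all annotated exons, ATP2A3 was 2.87 ± 0.233% of the summed ATP2A2 and ATP2A3 level in KD1, 59.1 ± 1.02% in KD2, 2.09 ± 0.281% in KDR and 2.88 ± 0.441% in NT (SD, n = 3 each). The KD2 share moved with the length used: with the length of a single annotated transcript for each gene it was 47.4%, and without any length it was 42.0%. ATP2A2 has 13745 annotated exon bases and the transcript used has 4094, while ATP2A3 has 6893 exon bases and a transcript of 3290. With exon lengths ATP2A3 was the more abundant SERCA RNA in KD2, at 76.7 against 53.0 CPM per kb for ATP2A2, and with transcript lengths the order turned, at 161 against 178. The summed exon-length level of both genes was 130 CPM per kb in KD2 and 43.5 CPM per kb in NT, a ratio of 2.98. Without any length the sum was 1257 CPM in KD2 and 589 CPM in NT, a ratio of 2.13, so the size of this rise also depends on the length used.

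**Figure D2:**
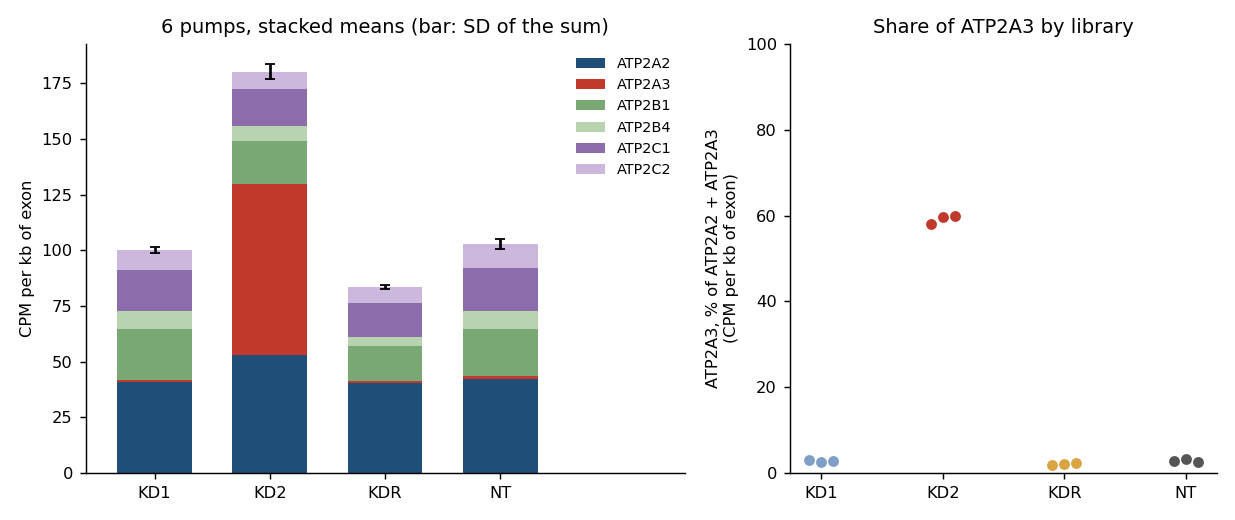
Mean levels of the 6 pump genes, in CPM per kb of annotated exon, stacked for KD1, KD2, KDR and NT with the SD of the sum over 3 libraries (left), and the share of ATP2A3 in the summed ATP2A2 and ATP2A3 level of each library, in percent (right). The stack for KD2 is the tallest at 180 CPM per kb against 103 CPM per kb for NT, and of the 4 groups ATP2A3 is the largest block in KD2 alone, on this exon-length scale.

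The plasma membrane pumps fell most in KDR. ATP2B1 (ENSG00000070961, chromosome 12, 89588049 to 89709366), a widely expressed PMCA, had 214, 216 and 220.2 CPM in KD1, 194, 183 and 181 CPM in KD2, 149.9, 153 and 149.6 CPM in KDR, and 208, 179.7 and 218 CPM in NT. All 3 KDR libraries were below all others, and KD2 overlapped NT at NT replicate 2. The log2 fold change was -0.42 in KDR against NT (95% interval -0.55 to -0.29, edgeR adjusted p = 1.7e-05) and -0.31 in KDR against KD2 (adjusted p = 0.00055). KD2 against NT was -0.12 (-0.25 to 0.01, adjusted p = 0.15), and without NT replicate 2 it was -0.20 (edgeR adjusted p = 0.00035).

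ATP2B4 (ENSG00000058668, chromosome 1, 203626832 to 203744081), another PMCA, had 75.1, 77.9 and 73.1 CPM in KD1, 60.1, 62.3 and 66.2 CPM in KD2, 37.1, 39.3 and 36.0 CPM in KDR, and 77.6, 77.1 and 76.3 CPM in NT. KDR was lowest, KD2 lay between KDR and NT, and the KD1 libraries overlapped those of NT. The level was lower in KDR than in NT by a log2 fold change of -1.04 (95% interval -1.18 to -0.90, edgeR adjusted p = 5.8e-11), the only member with a difference of more than 1 in that comparison. It was -0.75 in KDR against KD2 (adjusted p = 9.6e-09) and -0.29 in KD2 against NT (adjusted p = 0.0011).

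The Golgi pumps were lower in both KD2 and KDR. ATP2C1 (ENSG00000017260, chromosome 3, 130850595 to 131016712), the SPCA1 pump of the Golgi, had 161, 152 and 162 CPM in KD1, 142, 140.1 and 145 CPM in KD2, 131, 137 and 126 CPM in KDR, and 162, 152 and 176 CPM in NT. KDR was lowest and KD2 next, both below every KD1 and NT library. The fall in KDR against NT was called (log2 -0.31, edgeR adjusted p = 0.00039). That in KD2 against NT (-0.20, adjusted p = 0.014) was lost without KD2 replicate 2 (adjusted p = 0.061), without NT replicate 3 (0.081) and in a fit of the 2 groups alone (0.064).

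ATP2C2 (ENSG00000064270, chromosome 16, 84368527 to 84464187), the SPCA2 pump of secretory epithelia, had 66.7, 66.5 and 66.8 CPM in KD1, 54.8, 55.8 and 58.1 CPM in KD2, 52.5, 51.8 and 53.8 CPM in KDR, and 71.7, 88.3 and 79.5 CPM in NT. NT was highest, and neither KD2 nor KDR overlapped KD1 or NT. In log2 terms ATP2C2 differed by -0.51 in KD2 against NT (95% interval -0.66 to -0.35, edgeR adjusted p = 6.7e-06) and -0.60 in KDR against NT (adjusted p = 1.2e-06). KDR and KD2 differed by -0.09 (adjusted p = 0.36). The counts used no strand, and 26.2% of the exon bases of ATP2C2 overlap ATP2C2-AS1 on the opposite strand, which had 25 to 70 counts per library.

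The release channels split. ITPR1 (ENSG00000150995, chromosome 3, 4493345 to 4847506), the type 1 channel best known from neurons, had 8.63, 9.73 and 7.83 CPM in KD1, 14.2, 15.4 and 15.7 CPM in KD2, 6.73, 5.80 and 8.01 CPM in KDR, and 10.1, 10.1 and 7.93 CPM in NT. KD2 was above all other libraries, and KDR overlapped NT. The rise in KD2 against NT was 0.68 on the log2 scale (95% interval 0.40 to 0.97, edgeR adjusted p = 0.00040) and the fall in KDR against KD2 was -1.14 (adjusted p = 1.2e-06). In KDR against NT the value was -0.46 (adjusted p = 0.019), and the call was lost without KDR replicate 1 (0.064), KDR replicate 2 (0.12) or NT replicate 1 (0.070) and in a fit of those groups alone (0.058).

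ITPR2 (ENSG00000123104, chromosome 12, 26335352 to 26833194), the type 2 channel known from heart and liver, had 16.5, 18.0 and 18.7 CPM in KD1, 26.5, 26.7 and 31.4 CPM in KD2, 18.6, 18.9 and 17.9 CPM in KDR, and 17.5, 14.8 and 17.03 CPM in NT. As for ITPR1, KD2 was above all other libraries. ITPR2 rose by 0.78 on the log2 scale in KD2 against NT (95% interval 0.57 to 0.99, edgeR adjusted p = 1.6e-06) and differed by -0.61 in KDR against KD2 (adjusted p = 4.7e-05), while KDR and NT differed by 0.17 (adjusted p = 0.23).

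ITPR3 (ENSG00000096433, chromosome 6, 33620365 to 33696574), the type 3 channel known from secretory epithelia, had the highest level of the release channels and was lower in KD2. It had 322, 322 and 322 CPM in KD1, 245, 259 and 270.0 CPM in KD2, 294, 292 and 277 CPM in KDR, and 322, 409.8 and 318 CPM in NT. KD2 was lowest and KDR next, both apart from KD1 and NT, and NT replicate 2 was above all other libraries. Against NT, KD2 differed by -0.44 on the log2 scale (95% interval -0.59 to -0.29, edgeR adjusted p = 3.7e-05) and KDR by -0.28 (adjusted p = 0.0047). KDR lay 0.16 above KD2 (adjusted p = 0.10), a difference that was called without NT replicate 2 (adjusted p = 0.0010), without TMM (0.019) and in a fit of those groups alone (0.00065). Per kb of exon, ITPR3 was 91.3 ± 0.380% of the 3 release channels in KD2 and 95.9 ± 0.743% in NT. Of its exon bases, 10.4% overlap UQCC2 on the opposite strand, which had 594 to 1727 counts per library.

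STIM1 (ENSG00000167323, chromosome 11, 3854527 to 4093210), the ER calcium sensor, had 102, 98.3 and 106 CPM in KD1, 69.3, 70.8 and 65.04 CPM in KD2, 81.8, 78.0 and 75.0 CPM in KDR, and 100.3, 112 and 98.0 CPM in NT. KD2 was lowest and KDR next, both apart from KD1 and NT. STIM1 differed by -0.60 in KD2 against NT on the log2 scale (95% interval -0.74 to -0.46, edgeR adjusted p = 2.2e-07) and -0.40 in KDR against NT (adjusted p = 7.5e-05). The difference of 0.19 between KDR and KD2 (adjusted p = 0.030) was lost without KD2 replicate 1 (0.063), KD2 replicate 3 (0.14), KDR replicate 1 (0.15) or KDR replicate 2 (0.076). It was also lost without a filter on low counts (edgeR adjusted p = 0.062).

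Of the 9 members other than ATP2A3, 8 were called in KD2 against NT, 3 higher (ATP2A2, ITPR1 and ITPR2) and 5 lower, where 35.9% of all genes tested were called. In KDR against NT, 7 were called, all lower, where 27.5% of all genes were called and 14.5% were lower. In KDR against KD2, 6 were called, 1 higher (STIM1) and 5 lower, against 32.4% of all genes. Scaled by total counts without TMM, 7 were called, 2 higher and 5 lower, and over all genes 6317 were called, beside 6285 with TMM. In KD2 against KD1, 8 were called, 3 higher and 5 lower, against 35.5% of all genes. The members were picked with results known, so these shares are a description, and the comparisons share libraries. The median log2 fold change of the 9 was -0.20 in KD2 against NT and -0.40 in KDR against NT, while over all genes tested it was -0.01 and 0.01.

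The libraries of the groups did not overlap for 8 of the 9 members in KD2 against NT, where this held for 42.5% of all genes tested. It held for 8 of 9 in KDR against NT (38.2% of all genes), for 9 of 9 in KDR against KD2 (49.9%) and for 9 of 9 in KD2 against KD1 (49.7%). Against KD1, KD2 was higher in ATP2A2 (log2 0.38), ITPR1 (0.79) and ITPR2 (0.67), and the 5 members called lower ranged from -0.58 (STIM1) to -0.22 (ATP2B1). ATP2C1 differed by -0.15 there and was not called (edgeR adjusted p = 0.054).

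No member was called in KD1 against NT, where 0% of all genes were called by edgeR and 0 by DESeq2. At an unadjusted p under 0.05 this was 1 of the 9 members, ATP2C2 (log2 -0.26, adjusted p = 0.79), and 1185 of all genes. ATP2A2 and ATP2C2 were the 2 members whose KD1 and NT libraries did not overlap, where 9.4% of all genes did not. The 95% intervals of the 9 log2 fold changes lay between -0.41 and 0.32.

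**Figure D3:**
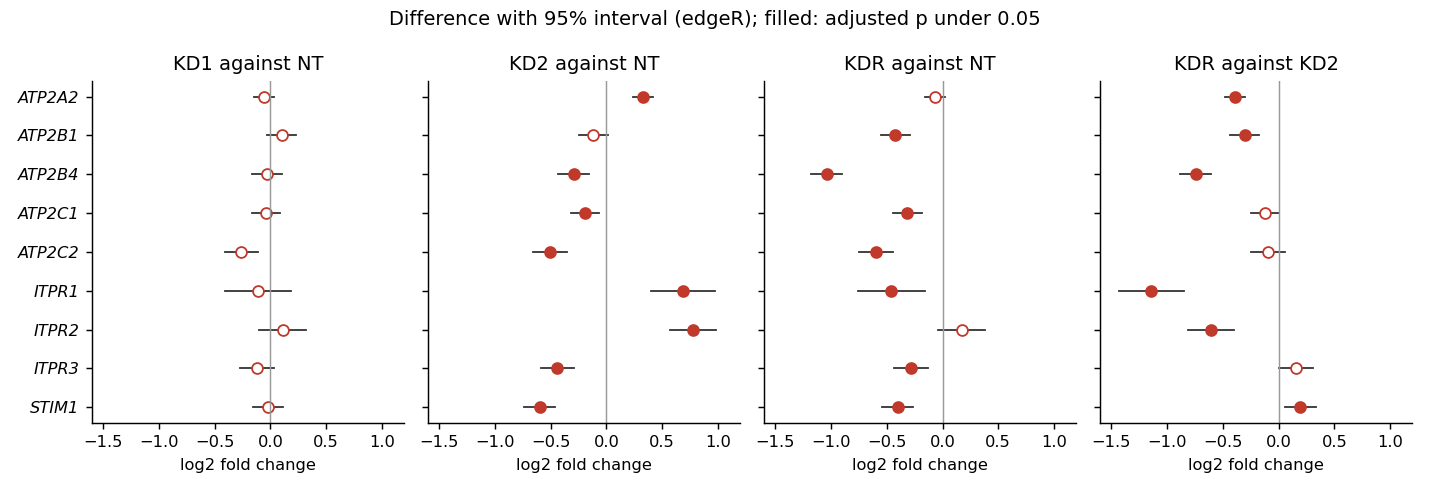
Log2 fold changes of the 9 members other than ATP2A3 in 4 comparisons, with horizontal lines for the 95% intervals of the edgeR model; filled points had an adjusted p under 0.05. Values for KD1 against NT lie between -0.26 and 0.11, while ATP2A2, ITPR1 and ITPR2 lie above 0 in KD2 against NT and below 0 in KDR against KD2.

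In order of level per kb of exon, ATP2A2 led in KD1, KDR and NT, at 40.7, 40.4 and 42.2 CPM per kb. ITPR3, ATP2B1 and ATP2C1 followed in that order, in KD2 after both SERCA genes, and ITPR1 was last in each group. With transcript lengths, ATP2C1 came before ITPR3 and ATP2B1 in all 4 groups (in NT 45.6, 35.5 and 28.7 CPM per kb), so this order too depends on the length. On the exon scale, the libraries of STIM1 and ATP2B4 and of ITPR2 and ATP2A3 overlapped in KD1, and those of ATP2B1 and ATP2C1 in KDR. In NT the libraries of ATP2A2 and ITPR3, of ATP2B1 and ATP2C1, of STIM1 and ATP2B4, and of ATP2A3 and ITPR2 overlapped, so their order there is not beyond the spread. In KD2 no neighbouring genes overlapped, with ATP2A3 at 76.7 ± 3.37 and ATP2A2 at 53.0 ± 0.640 CPM per kb (SD, n = 3 each), in the order that turned round with the transcript length.

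Among 132 further genes of calcium handling that matched by symbol, 113 could be tested. In KD2 against NT, 49 of the 113 were called, 21 higher and 28 lower, which is 43.4% beside 35.9% of all genes. In KDR against NT, 45 were called, 12 higher and 33 lower (39.8% beside 27.5% of all genes). Without KDR replicate 1 the count was 29, and over all genes it fell as well, to 4177 from 5337. In KDR against KD2, 49 were called, 17 higher and 32 lower (43.4% beside 32.4% of all genes). Scaled by total counts without TMM, that comparison had 25 higher and 25 lower, and over all genes 3579 higher and 2738 lower, where TMM gave 2972 higher and 3313 lower. The median log2 fold change of the 113 was 0.01 in KD2 against NT, -0.09 in KDR against NT and -0.10 in KDR against KD2, where the medians over all genes were -0.01, 0.01 and 0.02. In KD1 against NT, none was called by edgeR or DESeq2, with 8 of the 113 at an unadjusted p under 0.05, beside 1185 of all 19373 genes tested.

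Genes for calcium-binding and folding proteins of the ER and secretory pathway, which buffer stored calcium, included several of the smallest adjusted p-values. Of 13 measured, 6 rose and 3 fell in KD2 against NT (9 of 13, 69.2%, beside 35.9% of all genes). In KDR against KD2, 9 fell and none rose, where 17.1% of all genes were called lower. Scaled without TMM, 7 fell and none rose, and over all genes 2738 were called lower, beside 3313 with TMM. PDIA4, a disulfide isomerase, averaged 363 ± 10.4 CPM in KD1, 539 ± 1.65 in KD2, 344 ± 0.861 in KDR and 374 ± 8.18 in NT. HSP90B1 (GRP94) rose to 984 ± 18.3 CPM in KD2, against 676 ± 53.1 in NT, and HSPA5 (BiP) to 1637 ± 15.2 CPM in KD2, against 1218 ± 57.2 in NT (edgeR adjusted p = 1.1e-08 and 3.0e-08; SD, n = 3 each). RCN1, SDF4 and CALU, which are calcium-binding proteins of the secretory pathway, were the 3 that fell. The call of CALU (-0.13) was lost when any library other than NT replicate 2 was left out (edgeR adjusted p = 0.068 to 0.18). It was also lost without a filter on low counts (edgeR adjusted p = 0.20), in a fit of the 2 groups alone (0.17), with DESeq2 size factors (0.054) and with a replicate block (0.059).

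Entry channels and exchangers held the largest difference among these genes. TRPM8, the cold and menthol channel of prostate epithelium and sensory neurons, had 19.0, 17.1 and 21.2 CPM in KD1, 4.26, 5.21 and 3.21 CPM in KD2, 91.3, 87.7 and 94.2 CPM in KDR, and 21.2, 18.2 and 21.3 CPM in NT. KD2 was below and KDR above every NT library. The log2 fold change was -2.25 in KD2 against NT (edgeR adjusted p = 2.6e-12), 2.17 in KDR against NT (6.0e-13) and 4.42 in KDR against KD2 (8.9e-18). Of 12 measured in this list, 3 rose and 6 fell in KD2 against NT (75% called, beside 35.9% of all genes); CACNA1H, a T-type calcium channel, rose by 0.56 and TMEM165, a Golgi exchanger, fell by 0.47.

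Of the genes that act with STIM1 in store-operated entry, 2 rose and 2 fell of 11 in KD2 against NT, a share of 36.4%, close to the 35.9% of all genes. ORAI3, a channel subunit, had 7.74 ± 1.01 CPM in KD2 and 13.0 ± 2.10 in NT (edgeR adjusted p = 0.00030), and JPH1, a junction protein of ER and plasma membrane, had 29.9 ± 0.420 CPM in KD2 and 41.1 ± 3.34 in NT (adjusted p = 0.00012). ESYT2, a tether of ER and plasma membrane, rose by 0.20 (adjusted p = 0.0070). Differences of ORAI1 (-0.25), ORAI2 (-0.20) and STIM2 (0.14) were not called (adjusted p = 0.097, 0.095 and 0.16).

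Among pump regulators, 1 rose and 2 fell of 10 in KD2 against NT, or 30% beside 35.9% of all genes. TMX1, a redox regulator of SERCA, rose by 0.45 (adjusted p = 0.0026), and basigin (BSG), a partner of the PMCA pumps, fell by 0.25 (edgeR adjusted p = 0.0010). TMUB1 fell by 0.33 (adjusted p = 0.0042). PLN and SLN, the muscle inhibitors of SERCA, did not pass the filter on low counts. ATP2A1, the muscle SERCA, was the only further pump that passed, at 2.66 ± 0.672 CPM in KD2, 8.20 ± 1.15 in KDR and 4.71 ± 1.72 in NT; it fell in KD2 against NT (-0.83, adjusted p = 0.0076) and rose in KDR against NT (0.80, adjusted p = 0.0088). The fall was lost without KD2 replicate 1 (adjusted p = 0.062) or NT replicate 2 (0.079), and the rise without KDR replicate 3 (0.055) or NT replicate 1 (0.056).

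Of 7 further release channels, TMBIM6, a calcium leak protein of the ER, alone was called in KD2 against NT, at 844 ± 32.2 CPM in KD2 and 918 ± 26.3 in NT (14.3%, beside 35.9% of all genes). That call (-0.12, edgeR adjusted p = 0.032) was lost without KD2 replicate 2 (0.13), KD2 replicate 3 (0.15), KDR replicate 3 (0.051) or NT replicate 1 (0.055). It was also lost without a filter on low counts (edgeR adjusted p = 0.17) and in a fit of the 2 groups alone (0.15). Of the genes that regulate release, 3 rose and 3 fell of 10 in the same comparison (60%). AHCYL2, a relative of the ITPR-binding protein IRBIT, rose by 0.46, ITPRIPL2 rose by 0.58, and BCL2L1, an anti-apoptotic protein that binds the ITPR channels, fell by 0.36.

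In mitochondrial uptake, 1 rose and 2 fell of 12 in KD2 against NT (25%, beside 35.9% of all genes), and 1 rose and 6 fell in KDR against NT (58.3%, beside 27.5%). SMDT1 (EMRE), a subunit of the uniporter, fell by 0.76 in KD2 against NT, and SLC25A23, a calcium-dependent carrier, rose by 0.41. MICU2, a gatekeeper of the uniporter, had a log2 fold change of -0.24 (edgeR adjusted p = 0.028), a call lost without KD2 replicate 2 (0.12), KD2 replicate 3 (0.10), NT replicate 1 (0.089) or NT replicate 3 (0.13). This call was also lost in a fit of the 2 groups alone (edgeR adjusted p = 0.082).

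Among genes that form or break down IP3, 2 rose and 3 fell of 18 in KD2 against NT, or 27.8% beside 35.9% of all genes. PLCD1, a phospholipase C, averaged 3.85 ± 0.895 CPM in KD2 and 8.38 ± 0.834 in NT, GNAQ, a G protein subunit that activates phospholipase C, fell by 0.39, and PLCB1, another phospholipase C, rose by 0.42. Among calcium effectors, 3 rose and 5 fell of 19 in that comparison, or 42.1%, near the 35.9% of all genes. NFATC1, a calcium-activated transcription factor, averaged 11.2 ± 1.01 CPM in KD2 and 25.4 ± 0.789 in NT (edgeR adjusted p = 8.7e-09), and CAMKK2, a calmodulin-dependent kinase, fell by 0.51.

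**Figure D4:**
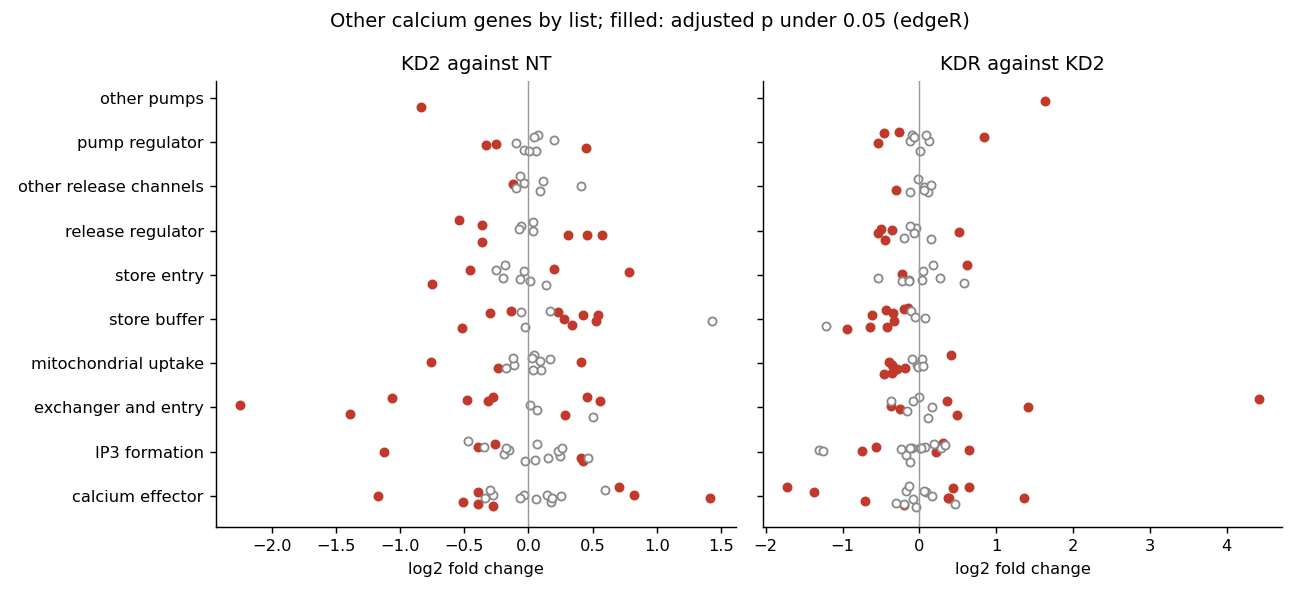
Log2 fold changes of the 113 further calcium genes tested, in rows by list, for KD2 against NT and KDR against KD2; each point is a gene, filled points were called, and the vertical scatter within a row only separates points. TRPM8 is the outermost point, at 4.42 in KDR against KD2, and 9 of the 13 genes in the store buffer row were called lower there with none called higher.

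By Pearson correlation of log2 CPM over the 12 libraries, among the 10950 genes averaging at least 5 CPM, the genes most like ATP2A3 were SPRY4 (0.998), PRSS23 (0.996), IQGAP2 (0.996), KIF1A (0.995) and ING3 (0.994). SPRY4 averaged 809.9 ± 10.5 CPM in KD2 and 275 ± 19.3 in NT, and PRSS23 averaged 474 ± 6.10 CPM in KD2 and 70.6 ± 4.53 in NT (SD, n = 3 each). The points are libraries of 4 groups, not 12 independent conditions, and 172 genes had a correlation of at least 0.95. Within the member list, ATP2A2 stood at 0.990, ITPR2 at 0.916 and ITPR1 at 0.898, and these are the members called higher in KD2 against NT. The other members lay between -0.702 (STIM1) and 0.141 (ATP2B4). Since ATP2A3 was picked for its level in KD2, a high correlation with it largely restates a higher level in KD2.

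On chromosome 17, the nearest tested gene below ATP2A3 was CAMKK1, 28978 bases away, a kinase activated by calcium and calmodulin. It averaged 15.7 ± 1.15 CPM in KD1, 28.6 ± 1.94 in KD2, 17.4 ± 0.558 in KDR and 16.1 ± 2.08 in NT, and rose by 0.83 in KD2 against NT (edgeR adjusted p = 1.2e-06). NCBP3, 77623 bases below, and ZZEF1, 39980 bases above, had log2 fold changes of 0.15 (adjusted p = 0.066) and -0.05 (adjusted p = 0.57) in KD2 against NT. LINC01975, 12638 bases above, had 59 counts over the KD2 libraries and 8 over the NT libraries and was called higher in KD2 (2.89, edgeR adjusted p = 0.019). That call rests on levels near 0, at 0.674 ± 0.140 CPM in KD2 and 0.0828 ± 0.143 in NT, where the SD exceeded the mean.

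**Figure D5:**
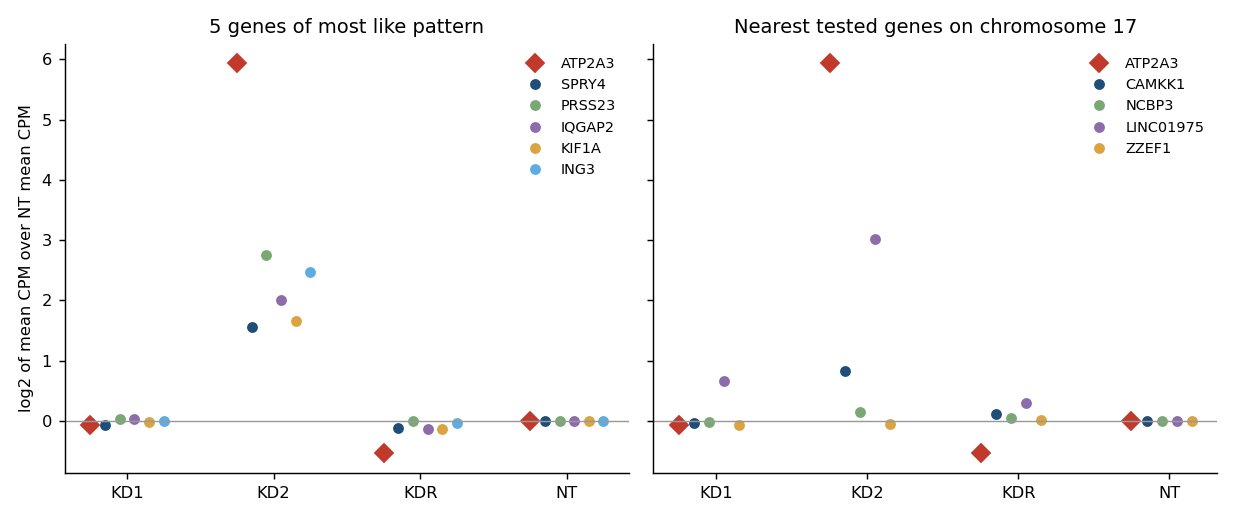
Log2 of the mean CPM of each group over the NT mean, for ATP2A3 with the 5 genes of most similar pattern, and for ATP2A3 with its nearest tested genes on chromosome 17. In KD2 the genes of similar pattern lie between 1.56 and 2.75, below ATP2A3, and CAMKK1 lies at 0.83.

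Markers of dividing cells moved with KD2 and KDR. The summed level of 5 of them (MKI67, TOP2A, CDK1, CCNB1 and BUB1) was 98.7 to 106 CPM in KD1, 389 to 406 CPM in KD2, 182 to 190 CPM in KDR and 96.4 to 107 CPM in NT. Markers of blood cells, in which ATP2A3 is known to be expressed, were near 0: 7 of 10 had no count in any of the 12 libraries. Their summed level was 0.778 to 1.48 CPM in KD1, 2.67 to 2.81 in KD2, 1.10 to 2.87 in KDR and 0.876 to 1.30 in NT, most of it ITGA2B in KD2. ITGA2B averaged 2.23 ± 0.136 CPM in KD2 and 0.593 ± 0.0994 in NT and was called higher in KD2 (log2 1.90, edgeR adjusted p = 0.00083). SPI1, the other blood marker that passed the filter, was not called in that comparison (edgeR adjusted p = 0.62). Basal, neuroendocrine and fibroblast markers summed to at most 7.75, 4.57 and 4.86 CPM in any library. Endothelial markers summed to at most 0.707 CPM, with CDH5 and TEK at 0 in all libraries. VWF, the endothelial marker that passed the filter, averaged 0.627 ± 0.0318 CPM in KD2, 0.166 ± 0.109 in KDR and 0.331 ± 0.122 in NT. It was not called in KD2 against NT (edgeR adjusted p = 0.27) and was called lower in KDR against KD2 (log2 -1.86, adjusted p = 0.031). The luminal markers were called lower for 8 of 9 in KD2 against NT, where 18.2% of all genes were called lower. They were called higher for 8 of 9 in KDR against KD2, where 15.3% of all genes were called higher. The part of these markers in the differences above was not tested.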

How the data were processed

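The authors deposited a table of raw counts per gene for each of the 12 libraries, together with the exon length of each gene (in bases). Per the file headers, featureCounts 1.6.4 assigned reads to Ensembl release 111 exons on GRCh38, unstranded, with the ends of a pair counted singly and multi-mapped reads left out by default. FastQC, cutadapt and HISAT2 are named in the submitters' processing notes, with versions not given in the sources used here. A fragment can thus be counted at both ends.

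Of 63241 genes, 42338 had a symbol and held 99.3% of the counts. Genes were kept by filterByExpr (19373 genes), scaled by TMM and tested in 1 quasi-likelihood fit of all 12 libraries with edgeR 4.0.16 in R 4.3.3, with Benjamini-Hochberg adjustment over all genes of a comparison and calls under 0.05. CPM are given as means ± SD of 3 libraries. DESeq2 1.42.0, other scalings and filters, a fit of the 2 groups alone, a replicate block, a fold threshold and leaving out each library in turn were tried. The method was tested on simulated data. Members and lists were chosen with earlier results of these data known. Named from each calcium list are up to 3 called genes with the smallest adjusted p in KD2 against NT; also named are the 5 genes of most similar pattern, the nearest tested neighbours, and some marker and overlapping genes; RCN1, SDF4, CALU, ORAI1, ORAI2, STIM2, PLN and SLN were named after their values were seen.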

Additional observations from a re-analysis of the deposited data

How the results depend on the processing

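Direction and side of the threshold held for most of the 950 values recomputed under other settings. These take in more than the 9 tested members, so the share kept does not describe those 9 alone. Any values of ATP2A3 among them are no support, since it was picked for its level in KD2. Of the 950, 922 kept direction and side, 12 lost a call, 12 gained one and 4 turned round. Those 4 were values near 0 in KD1 against NT, none called: leaving out a library moved ATP2C1 between -0.088 and 0.016, ITPR3 between -0.18 and 0.011, and STIM1 between -0.053 and 0.043. The calls lost or gained belong to ATP2B1, ATP2C1, ITPR1, ITPR3 and STIM1. ATP2C1 in KD2 against KD1 (-0.15, adjusted p = 0.054) was called under 6 settings, with edgeR or DESeq2 adjusted p from 0.0027 to 0.042. Leaving out a library moved the number of members called in KD2 against NT between 7 and 9, in KDR against NT between 6 and 7, in KDR against KD2 between 5 and 8, and in KD2 against KD1 between 8 and 9. For the other calcium genes the ranges were 46 to 62, 29 to 46, 41 to 67 and 47 to 66. Over all genes they were 5958 to 7582, 4177 to 6180, 5093 to 7876 and 5856 to 8219. Same-numbered libraries did not deviate together (0 of 18 same-numbered pairs had a residual correlation above 0.1), and with the replicate number as a block 8, 7, 6 and 8 members were called. With a log2 fold change of at least 1 as well, 0, 1, 1 and 0 members, 6, 3, 6 and 6 other calcium genes, and 1796, 1250, 1683 and 1732 of all genes were called, in the same order of comparisons. Without a filter on low counts, 23 genes were called in KD1 against NT. Depth did not limit ATP2A3, which had at least 176 counts in each library. Since all groups share 1 estimate of spread, leaving out NT replicate 2 raised the calls over all genes in the 4 comparisons with any, also in KDR against KD2 (7876, beside 6285 with it) and in KD2 against KD1 (8219, beside 6868).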
